A study of Homo sapiens with 4 samples.

Results

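Cyclin-dependent kinase (CDK) inhibitors, MYC and the D cyclins were followed, with and without SB431542, in differentiating cells of H1, a human embryonic stem cell line that is long established. The gene symbols CDKN1A, CDKN1B, CDKN1C, CDKN2A, CDKN2B, CDKN2C, CDKN2D, MYC, CCND1 and CCND2 were looked up in the deposited expression table, and all 10 were found, each with 1 row, among 58365 rows. They were chosen as the known cytostatic arm of TGFβ signaling, by name and not by a threshold on their values, at a time when earlier results of these data were known. RNA-seq had been run on 4 libraries at day 8 of hematopoietic differentiation, 2 titled DMSO (the vehicle) and 2 titled SB, with replicate numbers 1 and 2 in each. All cells had first received activin A with BMP4 and then VEGF with bFGF, and SB431542 was present in the SB cultures for the last 3 days only. The study describes sorting CD31-positive cells before sequencing, which the sample labels do not mention. All libraries derived from 1 cell line, and the labels do not say that the replicates were separate cultures. The study speaks of independent experiments in general, without naming these libraries. If the libraries were not separate cultures, p-values measure a spread that may be technical.

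SB431542 blocks the kinase of the TGFβ and activin type I receptors, and so keeps SMAD2 and SMAD3 from being phosphorylated. In epithelial and many other cells, TGFβ stops division in the G1 phase by raising the CDK inhibitors CDKN2B (p15) and CDKN1A (p21) and by repressing MYC, which itself holds both inhibitors down. CIP/KIP proteins bind cyclin-CDK complexes broadly, whereas INK4 proteins bind only CDK4 and CDK6, the kinases that the D cyclins activate to phosphorylate the retinoblastoma protein. In blood formation, restraint of this machinery accompanies stem cell quiescence, and its release accompanies progenitor expansion.

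Values are FPKM, fragments scaled for transcript length and for the size of the library, so levels can be compared between genes. The difference between groups was taken on log2(FPKM + 1) and tested with limma over 14909 genes, with adjustment for all of them. The depth estimated from the smallest steps in the table was about 24200000 and 23500000 fragments in the DMSO libraries and about 19700000 and 26000000 in the SB libraries. Endothelial markers were present throughout, PECAM1 (CD31) at 153 to 197 FPKM, and 8 pluripotency markers summed to 72.3 and 93.0 FPKM with DMSO and 94.9 and 116 FPKM with SB. Most of that sum came from LIN28A and DPPA4, and 5 of the 8 had a mean of at least 1 FPKM in at least 1 group. NANOG and SOX2 were at 0.121 FPKM or less in each library. Markers of other cells differed between the groups. The summed FPKM of 12 hematopoietic markers was 286 in both DMSO libraries against 531 and 538 with SB, and that of 10 megakaryocyte markers 291 and 301 against 732 and 822. Sums were lower with SB for 12 endoderm and liver markers (385 and 388 against 51.7 and 80.5), for 10 mesenchymal markers (385 and 418 against 206 and 212) and for 10 erythroid markers (1006 and 1040 against 678 and 766). Endothelial markers summed to 2428 to 2742 FPKM with DMSO and 2197 to 2483 with SB. All these marker lists had 0 genes listed at 0 in every library. In such bulk libraries fewer cells of a type and less RNA per cell cannot be told apart, and the part of cell makeup in the differences below was not tested.

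For CDKN2B and CDKN1A both SB libraries lay below both DMSO libraries, by 91.3% and 39.6% on average, and for CDKN2D (p19) both lay above, by 76.5% on average. None of the 10 passed the adjustment over all genes (0 of 10, limma adjusted p 0.245 to 0.971), against 0.134% of all tested genes. This fit had group as its only term. With a block for replicate number, described in the last section, 2 of the 10 passed, against 10.5% of all genes. Without the block, 3 of the 10 stood at an unadjusted p under 0.05, CDKN1A, CDKN2B and CDKN2D, against 9.96% of all genes. The SB libraries lay wholly outside the range of the DMSO libraries for 5 of the 10, against 37.5% of all genes. Of these, CDKN1A and CDKN2B were lower, and CDKN1B, CDKN2C and CDKN2D were higher. With 2 libraries in each group, exact permutation reaches no two-sided p under 0.33, so it was not used. The 3 genes at the foot of the scale were near the filter of a mean of 1 FPKM in at least 1 group. CDKN2B entered the test only through its DMSO libraries and CDKN2C only through its SB libraries, so that the sign of each difference was fixed by the filter.

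**Figure D1:**
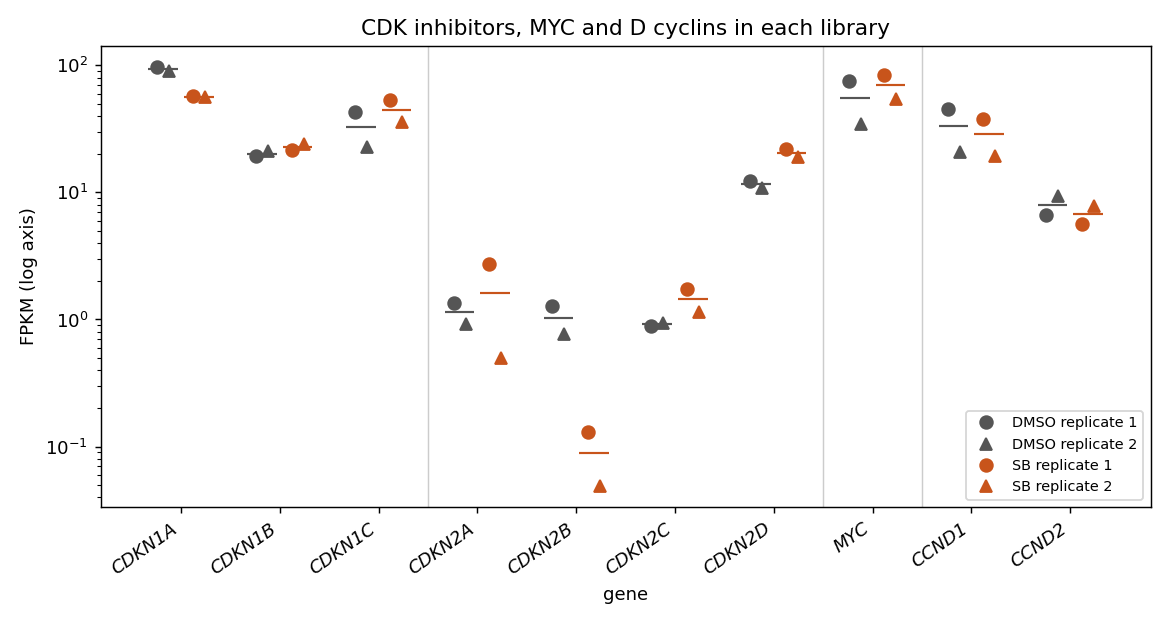
FPKM (log axis) of the 10 genes in each of the 4 libraries, with circles for replicate 1, triangles for replicate 2 and horizontal lines for group means. CDKN2B separates most between the groups, while MYC, CDKN1C and CCND1 are ordered by replicate number within each group.

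The promoters of the 3 genes at an unadjusted p under 0.05 are shown because TGFβ is known to act on the first of them through SMAD and SP1 sites close to the start. Each line gives the 250 bases before the start site from RefSeq on GRCh38.p14, read 5′ to 3′ on the gene's strand, with the SP1 box GGGCGG (or its reverse complement) in capitals. The CDKN2B window is chr9:22009306-22009555 on the minus strand, the CDKN1A window chr6:36678464-36678713 on the plus strand and the CDKN2D window chr19:10568980-10569229 on the minus strand.
CDKN2B: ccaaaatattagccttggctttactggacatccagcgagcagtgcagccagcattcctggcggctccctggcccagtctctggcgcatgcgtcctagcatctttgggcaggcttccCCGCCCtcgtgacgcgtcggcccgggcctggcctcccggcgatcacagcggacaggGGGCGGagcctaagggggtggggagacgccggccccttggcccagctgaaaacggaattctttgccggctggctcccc
CDKN1A: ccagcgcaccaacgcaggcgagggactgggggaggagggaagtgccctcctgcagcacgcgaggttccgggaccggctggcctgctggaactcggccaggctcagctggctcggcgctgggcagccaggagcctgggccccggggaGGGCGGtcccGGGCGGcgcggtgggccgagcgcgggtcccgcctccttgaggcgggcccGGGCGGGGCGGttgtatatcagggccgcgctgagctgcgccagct
CDKN2D: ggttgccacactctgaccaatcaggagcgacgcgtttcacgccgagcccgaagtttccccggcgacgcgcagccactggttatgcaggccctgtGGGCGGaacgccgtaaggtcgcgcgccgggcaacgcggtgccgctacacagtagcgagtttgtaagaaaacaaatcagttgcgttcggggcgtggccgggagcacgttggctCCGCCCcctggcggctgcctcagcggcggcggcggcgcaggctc

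The search covered both strands of the 300 bases from 250 before to 50 after each start. CDKN2B held 2 SP1 boxes, CDKN1A held 4, the last 2 of which overlap, and CDKN2D held 3, 1 of them after the start. The SMAD box CAGAC was found once in CDKN2D, after the start, and 0 times in the CDKN2B and CDKN1A windows. Among all 35116 windows of this length, 45.0% held the SP1 box and 45.3% the SMAD box. Windows were found for 6 of the 10 genes, with several starts for CDKN2A and CDKN2C. Of these 9 windows, 7 held an SP1 box and 4 a SMAD box. The E box CACGTG, to which MYC and MAX bind, was found in 2 of the 3 CDKN2C windows and in none of the windows of the other 5 genes (7.26% of all windows). The E2F-like letters GCGGGAA were found in 1 CDKN2C window (6.55% of all windows). A match is a description of letters and shows no binding.

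Among the CIP/KIP genes, CDKN1A was the most clearly apart between the groups, and none passed the adjustment with group as the only term. CDKN1A (ENSG00000124762.13, chromosome 6, 36676460 to 36687339) encodes p21, which blocks CDK2 complexes and also binds PCNA. DMSO replicates 1 and 2 held 97.2 and 89.5 FPKM of it, and SB replicates 1 and 2 held 56.9 and 55.9 FPKM. Both SB values lay below both DMSO values, and the replicates of a group differed by less than the groups did. Its mean was 39.6% lower, 93.3 ± 5.44 against 56.4 ± 0.716 FPKM (SD, n = 2 each), a log2 difference of -0.72 (SE 0.16, 95% interval -1.12 to -0.31, unadjusted limma p 0.00633, adjusted p 0.245). Within replicate numbers 1 and 2 the log2 difference was -0.76 and -0.67. It was -0.77 to -0.66 when any 1 library was left out. The gene DINOL overlaps exons of CDKN1A on the opposite strand and has no row of its own in the deposited table. Its part in the CDKN1A value was not tested.

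CDKN1B (ENSG00000111276.10, chromosome 12, 12715058 to 12722371) encodes p27, a CDK2 inhibitor held mainly by protein turnover. It stood at 19.3 and 21.0 FPKM with DMSO, compared with 21.7 and 23.9 FPKM with SB. The SB values were above the DMSO values by less than 1 FPKM at the nearest, and overlapped them once libraries were rescaled. The log2 difference was 0.17 (95% interval -0.26 to 0.59, limma adjusted p 0.853).

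CDKN1C (ENSG00000129757.12, chromosome 11, 2883213 to 2885881) encodes p57, an imprinted inhibitor linked to quiescence of hematopoietic stem cells. It stood at 42.98 and 22.9 FPKM with DMSO, compared with 53.3 and 36.0 FPKM with SB. The groups overlapped, because replicate 1 was above replicate 2 in each, by 1.88 times with DMSO and 1.48 times with SB. Within replicate numbers the SB library was 1.24 and 1.57 times the DMSO library, whereas the pooled log2 difference of 0.47 had a 95% interval of -0.49 to 1.42 (limma adjusted p 0.798). The pooled value was 0.03 when DMSO replicate 2 was left out and 0.91 when DMSO replicate 1 was left out. Leaving out 1 library makes the replicate numbers unequal between the groups, so these values also hold the difference between replicate numbers.

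The makeup of the CIP/KIP transcripts was also compared, as a description with no test. CDKN1A made up 60.9% and 67.1% of the summed CIP/KIP FPKM with DMSO and 43.1% and 48.3% with SB. CDKN1C made up 26.95% and 17.1% with DMSO and 40.4% and 31.1% with SB. CDKN1B took 12.1% and 15.8% with DMSO and 16.4% and 20.7% with SB. The sum was 159 and 133 FPKM with DMSO and 132 and 116 FPKM with SB, so that both SB sums were lower, the nearest ones by little.

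The INK4 family was led by CDKN2D, and CDKN2B differed most between the groups relative to its level. CDKN2B (ENSG00000147883.10, chromosome 9, 22002903 to 22009363) encodes p15, the inhibitor of CDK4 and CDK6 best known as a direct TGFβ target. It stood at 1.29 and 0.768 FPKM with DMSO, compared with 0.1295 and 0.0488 FPKM with SB. Both SB values were far below both DMSO values, and the ratio of SB to DMSO was 0.101 in replicate 1 and 0.0636 in replicate 2. The mean was 1.03 ± 0.367 against 0.0892 ± 0.0571 FPKM (SD, n = 2 each), that is 91.3% lower or 11.5-fold. The pseudocount of 1 compresses this to a log2 difference of -0.89 (SE 0.26, 95% interval -1.57 to -0.20, unadjusted limma p 0.0209, adjusted p 0.376). CDKN2B passed the filter only through its DMSO libraries, so the sign was fixed by the filter and this p-value does not test it. With a pseudocount of 0.1 the log2 difference was -2.57 (limma adjusted p 0.434).

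The level of CDKN2B was low in absolute terms even with DMSO, where it exceeded only 4.19% of tested genes. If its longest transcript (3911 nt) gave the signal, the values correspond to about 113 and 65.4 fragments with DMSO and 9.24 and 4.60 fragments with SB. With its shortest transcript (859 nt), they correspond to 18.3 and 10.3 fragments with DMSO and to 1.46 and 0.730 fragments with SB. These counts are estimates, and the isoform that gave the reads is not given in the table. CDKN2B shares with its neighbour CDKN2A 31 of 4051 stretches of 50 bases (0.765%), so reads from a short stretch may be split between them.

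CDKN2A (ENSG00000147889.17, chromosome 9, 21967753 to 21995301) encodes p16 and, from another reading frame, the MDM2 inhibitor ARF, which the row does not separate. It stood at 1.36 and 0.918 FPKM with DMSO, compared with 2.75 and 0.495 FPKM with SB. The SB libraries lay on either side of the DMSO libraries and differed from each other by 5.56 times, or about 54.0 against 12.8 fragments on its longest transcript (1283 nt). The log2 difference of 0.15 (95% interval -1.101 to 1.41, limma adjusted p 0.971) is therefore smaller than the spread between replicates. CDKN2B-AS1, transcribed from the opposite strand with exons that overlap CDKN2A, was likewise highest in SB replicate 1, at 0.294 FPKM against 0 to 0.0665 FPKM elsewhere. MTAP, the next gene of the locus, was also highest there, at 22.6 FPKM against 12.9 to 17.1 FPKM. Strand use in counting is not stated, and the part of these genes in the CDKN2A value was not tested.

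CDKN2C (ENSG00000123080.10, chromosome 1, 50960745 to 50974633) encodes p18, which limits divisions of blood stem cells and lymphocytes. It stood at 0.888 and 0.941 FPKM with DMSO, compared with 1.75 and 1.15 FPKM with SB. The SB values were above the DMSO values, but the SB libraries differed from each other by 1.52 times. CDKN2C passed the filter only through its SB libraries, so the sign was fixed by the filter. The log2 difference was 0.35 (95% interval -0.27 to 0.96, limma adjusted p 0.760), with 0.54 and 0.15 within replicate numbers 1 and 2. It was 0.17 without SB replicate 1 and 0.52 without SB replicate 2.

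CDKN2D (ENSG00000129355.6, chromosome 19, 10566462 to 10569059) encodes p19, an INK4 protein whose level varies over the cell cycle. It stood at 12.4 and 10.8 FPKM with DMSO, compared with 22.0 and 18.9 FPKM with SB. Both SB values were well above both DMSO values, with ratios of 1.78 and 1.75 within replicate numbers. The mean was 11.6 ± 1.12 against 20.4 ± 2.21 FPKM (SD, n = 2 each), a log2 difference of 0.77 (SE 0.18, 95% interval 0.30 to 1.23, unadjusted limma p 0.00832, adjusted p 0.270). Left-out libraries moved this value between 0.66 and 0.87.

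CDKN2D made up 77.8% and 80.4% of the summed INK4 FPKM with DMSO and 82.6% and 91.8% with SB. The share of CDKN2B was 8.09% and 5.72% with DMSO and 0.486% and 0.237% with SB. The INK4 sum was 15.9 and 13.4 FPKM with DMSO and 26.6 and 20.6 FPKM with SB, and so was higher in both SB libraries. Summed over all 7 inhibitors, FPKM were 175 and 147 with DMSO and 158 and 136 with SB, and the groups overlapped.

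**Figure D2:**
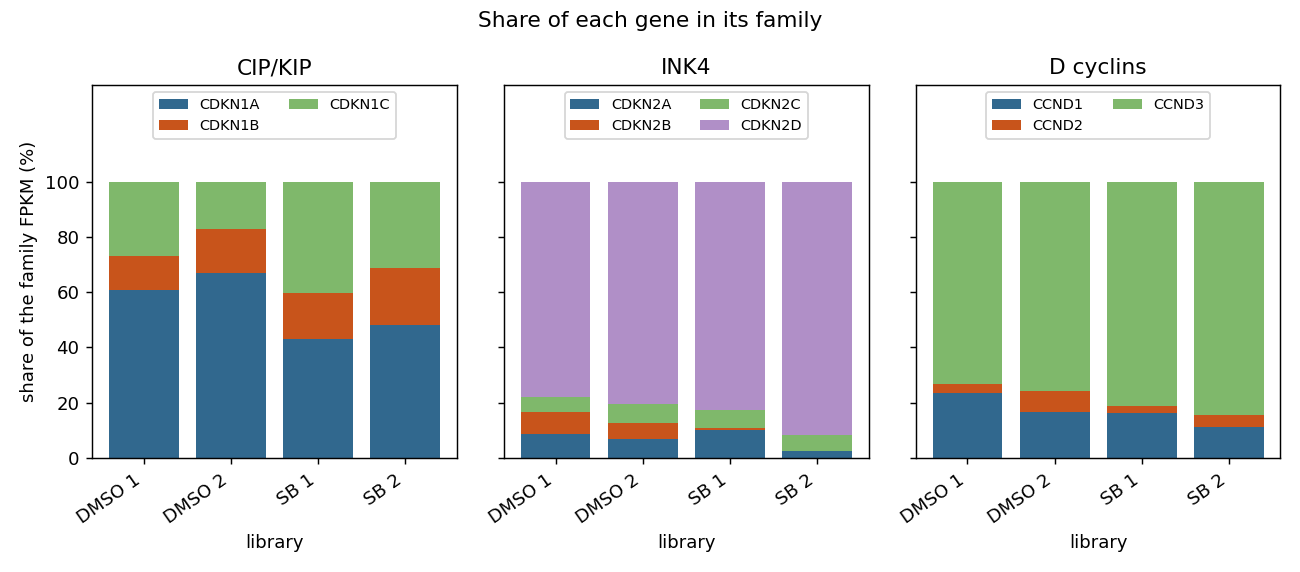
Share of each gene (percent of the family's summed FPKM) in each library for the CIP/KIP genes, the INK4 genes and the D cyclins with CCND3. The CDKN1A share is 43.1% and 48.3% in the SB libraries against 60.9% and 67.1% in the DMSO libraries, and CDKN2D and CCND3 lead their families in every library.

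MYC was high in all libraries, and its mean difference between groups was smaller than the difference between replicates 1 and 2 within each group. MYC (ENSG00000136997.17, chromosome 8, 127735434 to 127741434) encodes a transcription factor that drives ribosome production and entry into the cell cycle. It stood at 75.6 and 34.7 FPKM with DMSO, compared with 84.6 and 54.5 FPKM with SB. The groups overlapped, since replicate 1 exceeded replicate 2 by 2.18 times with DMSO and by 1.55 times with SB. Within replicate numbers the SB library was 1.12 and 1.57 times the DMSO library. The pooled log2 difference was 0.40 (SE 0.44, 95% interval -0.73 to 1.53, limma adjusted p 0.875), and it was -0.15 without DMSO replicate 2. That removal leaves the replicate numbers unequal between the groups. The ratio of MYC to CDKN1A was 0.778 and 0.388 with DMSO and 1.49 and 0.976 with SB, so that the groups did not overlap in this ratio. The groups also did not overlap for CDKN2D over CDKN1A (0.127 and 0.121 against 0.387 and 0.338). The same held for CDKN1C over CDKN1A (0.442 and 0.256 against 0.937 and 0.644). For CCND1 over CCND2 they overlapped (6.87 and 2.21 against 6.67 and 2.48). These ratios were formed after the values of the genes were known and were not tested.

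For the D cyclins CCND1 and CCND2 the mean difference between groups was smaller than the difference between replicates 1 and 2 within each group. CCND1 (ENSG00000110092.3, chromosome 11, 69641087 to 69654474) encodes the D cyclin of most adherent cells. It stood at 45.6 and 20.7 FPKM with DMSO, compared with 37.9 and 19.5 FPKM with SB. The values followed the replicate number, with replicate 1 above replicate 2 by 2.21 times and 1.94 times, and within numbers the SB library was 0.830 and 0.943 times the DMSO library. The log2 difference of -0.17 had a 95% interval of -1.44 to 1.096 (limma adjusted p 0.967), and it changed sign to 0.38 without DMSO replicate 1 and 0.29 without SB replicate 2. Each of these removals leaves the replicate numbers unequal between the groups.

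CCND2 (ENSG00000118971.7, chromosome 12, 4273772 to 4305350) encodes a D cyclin used by hematopoietic cells among others. It stood at 6.65 and 9.36 FPKM with DMSO, compared with 5.68 and 7.88 FPKM with SB. Here replicate 2 was the higher in each group, opposite to CCND1. Within numbers the SB library was 0.855 and 0.842 times the DMSO library, and the pooled log2 difference was -0.21 (95% interval -0.86 to 0.44, limma adjusted p 0.893), or 0.01 without DMSO replicate 2. A further annotated gene, AC008012.1, shares 13.2% of the 50-base stretches of CCND2. It has no row of its own in the deposited table, and its part in the CCND2 value was not tested. The gene LTO1 overlaps exons of CCND1 on the opposite strand and stood at 13.0 to 16.7 FPKM.

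CCND3, the third D cyclin and no member of the group above, was the most abundant in every library. It stood at 142 and 94.5 FPKM with DMSO, compared with 190 and 148 FPKM with SB, above the DMSO libraries in both SB libraries (log2 difference 0.53, limma adjusted p 0.655). Its share of summed D cyclin FPKM was 73.2% and 75.9% with DMSO and 81.3% and 84.4% with SB. The share of CCND1 was 23.4% and 16.6% with DMSO and 16.2% and 11.1% with SB.

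The order of the levels differed between the groups at the top, at the foot and for CCND1 and CDKN1C, which changed places but overlapped in both groups. With DMSO, CDKN1A led at 93.3 FPKM, apart from MYC at 55.2 FPKM in every library. With SB, MYC led at 69.6 FPKM and CDKN1A followed at 56.4 FPKM, but their library values overlapped. In the middle of the order, MYC, CCND1 and CDKN1C overlapped with DMSO, and neighbours from CDKN1C through CCND1 and CDKN1B to CDKN2D overlapped with SB. CCND2 stood apart from both neighbours in both groups. At the foot, CDKN2A, CDKN2B and CDKN2C overlapped at 0.914 to 1.14 FPKM with DMSO, whereas with SB CDKN2B lay alone at 0.0892 FPKM.

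**Figure D3:**
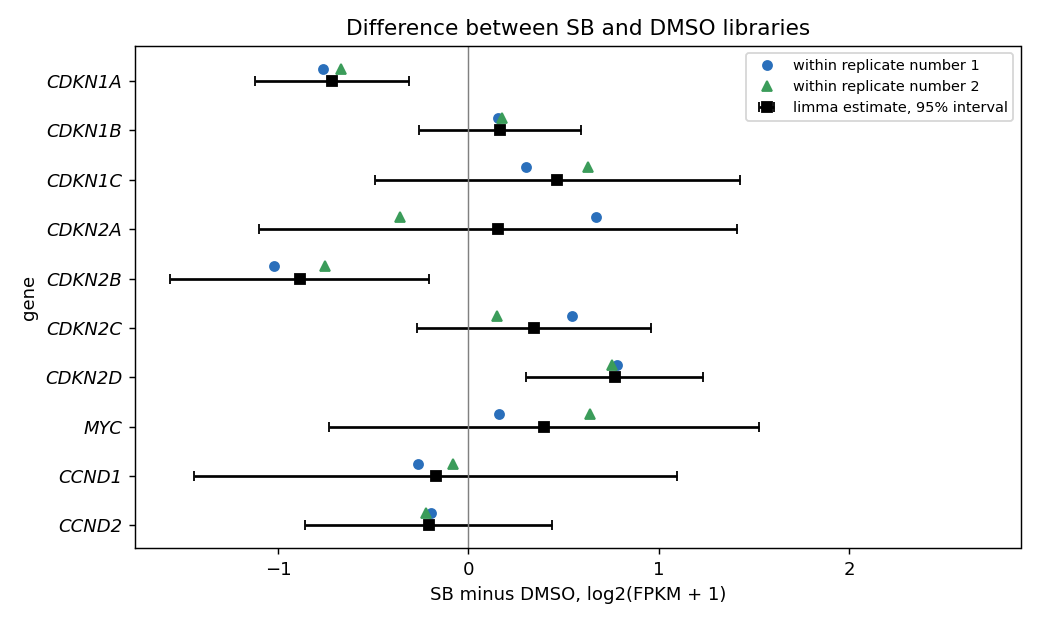
Difference between SB and DMSO on log2(FPKM + 1) for each gene, with the limma estimate and its 95% interval (squares and bars) and the difference within replicate numbers 1 and 2 (circles and triangles). The intervals of CDKN1A, CDKN2B and CDKN2D lie off zero before adjustment, that of CDKN2B with a sign fixed by the filter. The points within replicate numbers fall on opposite sides of zero for CDKN2A alone.

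MYC, CCND1 and CDKN1C were higher in replicate 1 than in replicate 2 in both groups, by 1.48 to 2.21 times. CDKN1A, CDKN2A, CDKN2B and CDKN2D were also higher in replicate 1 in both groups, whereas CDKN1B and CCND2 were higher in replicate 2. The libraries as a whole separated in this way too. In replicate 1 the mitochondrial share of summed FPKM was 5.88% and 6.64%, and in replicate 2 it was 9.92% and 10.2%, and the RNAs RN7SL1 and RN7SL2 made up 4.45% and 3.96% against 1.40% and 1.54%. After rescaling without these genes, the log2 differences were 0.36 for MYC, -0.21 for CCND1 and 0.43 for CDKN1C. What the replicate number stands for is not stated in the labels.

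The partners of these genes in G1 were looked at next. With group as the only term, none of 161 listed pathway genes passed the adjustment (0 of 161 with limma). Of them 32 stood at an unadjusted p under 0.05, against 9.96% of all genes. These 32 became 24 under quantile normalization, 23 under upper-quartile scaling and 24 after mitochondrial and RN7SL rescaling. The number over all genes was 1485 in the main fit and 1419, 1377 and 1407 under these scalings. Of 13 tested G1 kinases and cyclins, 1 was higher at an unadjusted p under 0.05, against 4.8% of all genes. This was CDK4, the kinase partner of the D cyclins, at 79.8 and 88.8 FPKM with DMSO against 110 and 119 FPKM with SB (log2 difference 0.44, limma adjusted p 0.485). CDK6, the other such kinase, stood at 7.69 to 7.71 FPKM with DMSO, compared with 7.64 to 7.88 FPKM with SB, and CDK2 at 31.1 to 41.8 FPKM against 35.6 to 38.7 FPKM, so that both overlapped. CDC25A, the phosphatase that activates CDK2 and is repressed by TGFβ in epithelial cells, had a log2 difference of 0.48 and CCNA2, the S phase cyclin, one of 0.61 (limma adjusted p 0.530 and 0.567). The median of the 13 was 0.05, beside 0.04 over all tested genes.

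Among 17 tested RB and E2F genes, 1 was higher at an unadjusted p under 0.05, a share near the 4.8% of all genes. This was DYRK1A, a kinase that assembles the repressive DREAM complex and marks D cyclins for decay (log2 difference 0.48, limma adjusted p 0.484). LIN52 (0.29) and E2F1 (0.33) followed, with limma adjusted p of 0.754 and 0.760. RB1, the retinoblastoma gene, stood at 18.1 and 22.7 FPKM with DMSO, compared with 18.7 and 25.4 FPKM with SB, and so overlapped. The median of the list was 0.20.

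Of 14 tested genes for the turnover of p27 and p21 proteins, 3 were higher and 0 lower at an unadjusted p under 0.05, against 4.8% and 5.16% of all genes. CKS1B, the cofactor that presents p27 to its ubiquitin ligase, stood at 51.7 and 59.3 FPKM with DMSO against 81.6 and 86.1 FPKM with SB (log2 difference 0.59, limma adjusted p 0.349). DTL, which directs p21 to decay in S phase, had a log2 difference of 0.58 and CKS2, a relative of CKS1B, one of 0.70 (limma adjusted p 0.371 and 0.411). SKP2, the ligase subunit that binds p27, stood at 17.4 and 17.2 FPKM with DMSO, compared with 18.5 and 15.5 FPKM with SB, so that the groups overlapped. The median of the list was 0.18.

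In the MYC network, 2 of 12 tested genes were higher at an unadjusted p under 0.05, against 4.8% of all genes. MYCN, a MYC paralog, stood at 47.4 and 37.9 FPKM with DMSO, compared with 67.0 and 61.6 FPKM with SB (log2 difference 0.59, limma adjusted p 0.409), and both SB libraries were above both DMSO libraries. MAX, the obligate partner of MYC, stood at 88.9 and 97.8 FPKM with DMSO, compared with 126 and 170 FPKM with SB (log2 difference 0.65, limma adjusted p 0.422). MLX, a MAX-like factor, had a log2 difference of 0.30 (limma adjusted p 0.694), and the median of the list was 0.04. Of 25 MYC target genes, 20 were higher in both SB libraries than in both DMSO libraries and 0 lower, against 21.5% and 16% of all genes. Their median log2 difference was 0.30, and 3 stood higher at an unadjusted p under 0.05, against 4.8% of all genes, DKC1 (0.49), TFAP4 (0.49) and MRTO4 (0.54), with limma adjusted p of 0.40 to 0.497. For 20 housekeeping genes the median log2 difference was 0.12, with 7 higher and 1 lower in both SB libraries than in both DMSO libraries.

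Of 23 tested regulators of the cytostatic response, 7 were lower and 0 higher at an unadjusted p under 0.05, against 5.16% and 4.8% of all genes, and their median log2 difference was -0.14. ID1, an inhibitor of differentiation factors that represses CDKN2A, stood at 470 and 505 FPKM with DMSO, compared with 179 and 187 FPKM with SB (log2 difference -1.41, limma adjusted p 0.0803). SKIL, a SMAD repressor induced by TGFβ, stood at 7.77 and 11.1 FPKM with DMSO, compared with 2.10 and 2.00 FPKM with SB (log2 difference -1.76, limma adjusted p 0.0983), and ID3 had a log2 difference of -0.87 (limma adjusted p 0.187). The others of the 7, named after their values were seen, were ID2, TGIF1, KLF10 and GADD45B, the last of which passed the filter only through its DMSO libraries. SMAD3 overlapped between groups at 12.1 to 17.8 FPKM with DMSO and 9.37 to 18.4 FPKM with SB, and SMAD4 stood at 32.8 and 34.9 FPKM against 32.6 and 32.0 FPKM (log2 difference -0.07, limma adjusted p 0.961).

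Other inputs to the same inhibitors were then counted. Of 15 regulators of the INK4 locus, CBX7, a Polycomb repressor of CDKN2A, was lower (log2 difference -0.62, limma adjusted p 0.406) and ETS2, an activator of CDKN2A, was higher (0.52, limma adjusted p 0.450) at an unadjusted p under 0.05, that is 2 of 15 against 9.96% of all genes, and BMI1, a further Polycomb repressor, had a value of -0.27. Of 22 p53 target genes, which share with CDKN1A its best known activator, 5 were lower and 0 higher at an unadjusted p under 0.05, against 5.16% and 4.8% of all genes. In both SB libraries 9 were lower and 0 higher than in both DMSO libraries, against 16% and 21.5% of all genes, and the median was -0.25. ZMAT3 (-0.69), DDB2 (-0.58) and BTG2 (-0.61) had limma adjusted p of 0.354, 0.369 and 0.409. MDM2, a classical p53 target named here after its values were seen, averaged 23.2 FPKM in DMSO and 21.6 FPKM in SB libraries (log2 difference -0.10). Of 25 proliferation genes, 25 had a higher value with SB within both replicate numbers, against 40.9% of all genes, and their median log2 difference was 0.46. Of them 8 stood higher at an unadjusted p under 0.05, against 4.8% of all genes, CDC20 (0.73), BUB1 (0.61) and MKI67 (0.58) among them, with limma adjusted p of 0.249, 0.327 and 0.436.

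**Figure D4:**
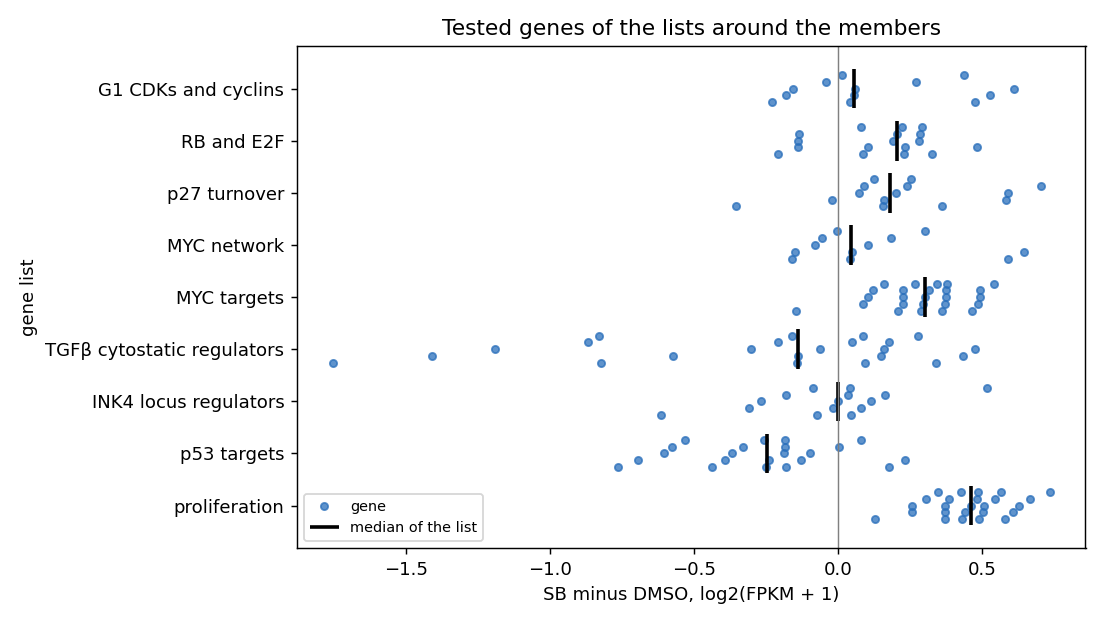
Difference between SB and DMSO on log2(FPKM + 1) for each tested gene of 9 lists (points), with the median of each list (black bar). The medians run from -0.25 for p53 targets to 0.46 for proliferation genes, and the lowest single value is that of SKIL (-1.76).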

How the data were processed

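RNA-seq of 4 libraries was analysed from FPKM values deposited by the authors, in 58365 rows with 1 column per library. A service company sequenced the libraries. The submitters' processing notes name BWA, Bowtie, RSEM and hg19 without roles, but the loci in the table are those of GRCh38: 95.5% of identifiers occur with the same version in GENCODE release 29, 99.8% of these at the same position. No scaling between libraries is stated.

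Groups came from the sample titles. Genes with a mean of at least 1 FPKM in at least 1 group were tested on log2(FPKM + 1) with limma 3.58.1 in R 4.3.3 (empirical Bayes with a trend, group as the only term, two-sided, Benjamini-Hochberg adjustment, threshold 0.05). The test was run on simulated data drawn without a difference between replicate numbers, so that run does not cover such a difference. All 10 members passed the filter.

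Depth was estimated from single-exon genes of at least 600 nt with 1 transcript, in which 96.0% to 96.9% of values worth about 1 to 5 fragments lay within 0.1 of a whole number. The estimate assumes that FPKM was scaled to all mapped fragments, and intervals for counting error were not formed. Fragment numbers of members assume 1 transcript.

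The members and lists were chosen with earlier results of these data known. Named genes are all members, 10 direct partners, and for each list any gene past the adjustment and the 3 with the smallest unadjusted p. Other genes (PECAM1, NANOG, SOX2, LIN28A, DPPA4, CDKN2B-AS1, MTAP, LTO1, AC008012.1, DINOL and those so marked in the text) were named outside this rule, after the values were seen. Lists are described by counts and medians, with no set test. Alternatives were the replicate block, other filters, a pseudocount of 0.1, other scalings, no variance trend and removal of each library.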

Additional observations from a re-analysis of the deposited data

How the results depend on the processing

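Blocked by replicate number, 2 members passed (CDKN1A, limma adjusted p 0.0108, and CDKN2D, 0.0149), as did 1564 of all genes (10.5%) and 46 pathway list genes. Among the other members the blocked limma adjusted p ran from 0.0609 (CDKN1C) to 0.771 (CDKN2A), with CDKN2B at 0.107 and MYC at 0.125. The labels do not say that a number pairs libraries. The deviations of same-numbered libraries correlated at 0.528 across genes, with only 2 pairs, so the unblocked fit was kept. All genes called numbered 20, against 0 without the filter (2739 at an unadjusted p under 0.05), 31 under quantile normalization and 0 to 14 when 1 library was left out (0 without DMSO replicate 1, 9 without SB replicate 2, 10 without SB replicate 1). Under all alternatives other than the block, 0 members and 0 pathway list genes passed. Members whose groups did not overlap numbered 3 under the filter of 5 FPKM in 2 libraries, which removed CDKN2A, CDKN2B and CDKN2C, and 6 to 9 when 1 library was left out. They numbered 4 under quantile, upper-quartile or mitochondrial and RN7SL rescaling. The share of all genes whose groups did not overlap was formed for the main setting only (37.5%). With 1 library left out, 1 library stands against 2, and groups then fail to overlap more easily. The 6 to 9 members therefore cannot be set against that share, and no stronger separation is read from them. Signs changed only when a library was left out, and the log2 difference then ran from -0.72 to 0.38 for CCND1 (0.38 without DMSO replicate 1, 0.29 without SB replicate 2), from -0.15 (without DMSO replicate 2) to 0.95 for MYC, from -0.43 to 0.010 (without DMSO replicate 2) for CCND2 and from -0.51 (without SB replicate 1) to 0.82 for CDKN2A. With 1 library left out the replicate numbers are unequal between the groups, so these changes also hold the difference between replicate numbers. CDKN2B could not be fitted without DMSO replicate 1, being under the filter. Every symbol had 1 row, so summing rows gave nothing new. Counting error at this depth was not measured for any member, and the fragment numbers behind the values depend on which transcript is assumed.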
